A study of Mus musculus with 6 samples.

Results

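Short assembled regions are stretches of the mouse genome, at most 1000 bases long, that the authors listed as transcripts outside their gene table, each under a TCONS name. The members described here were chosen by their counts: at least 1 read in each of 2 libraries from sperm nuclei, no read in the library from whole sperm, and a position off the mitochondrial chromosome. This left 287 regions of the 2165 short regions off that chromosome, and of 2381 regions in all. The rule used the difference between nuclei and whole sperm, so that difference is given below as a description, and the calls of fits across all features are printed only beside the share called over all features. RNA came from mature spermatozoa of the cauda epididymis and vas deferens of adult C57BL/6 mice of transgenic line HP3.1, taken from individual animals 4 months of age; the transgene is not named in the sources used here, and nuclei and whole sperm alike come from that line. Nuclei were freed from tails by sonication and spun through sucrose and caesium chloride with Triton X-100, whereas whole sperm skipped both steps. There were 2 nuclei preparations, called nuclei 1 and nuclei 2, and 1 preparation of whole sperm, each sequenced in 2 runs, and the labels do not tie a preparation to an animal. Whole sperm therefore has no replicate.

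The nucleus of a mature sperm is packed with protamines in place of most histones and is largely silent in transcription. Its RNA is regarded as a remainder of transcription in earlier germ cells, to which RNA taken up during passage through the epididymis may add in the whole cell. Regions assembled from reads outside known genes can be unannotated long noncoding RNAs, unannotated exons, pieces of introns, or reads of repeated sequence, and a list without strand, as here, does not separate these kinds.

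Bases could be read from the reference tables for stretches of 10 members, at exons of GENCODE vM21 transcripts and at RefSeq windows before gene starts, both on build GRCm38, which is mm10. The 6 stretches below are shown because they carry members that lie at genes and had a whole-sperm count of 0, although the authors' RPKM table lists the first of them above 0 in whole sperm. The first 4 belong to members named by a rule on level, length or position, and the last 2 were picked after their values were seen. TCONS_00010520 is shown at chr13:59746493-59746702 on the plus strand, an exon of the long noncoding RNA Gm46419. TCONS_00038102 is shown at chr7:82174285-82174584 on the minus strand, an exon of Gm45089, a transcript still to be experimentally established. TCONS_00042761 is shown at chr9:124442109-124442284 on the minus strand, coding sequence of Ppp2r3d, a gene for a regulatory subunit of protein phosphatase PP2A. TCONS_00032290 is shown at chr5:134906865-134906983 on the minus strand, before the start of Tmem270, a transmembrane protein gene. TCONS_00012671 is shown at chr14:70207841-70208012 on the plus strand, an exon of the antisense transcript Gm49417 inside Sorbs3. TCONS_00040154 is shown at chr8:54726980-54727142 on the minus strand, before a RefSeq start of Wdr17. The strand given is that of the annotated gene, since the region list has none. Capitals mark the CCAAT box. They also mark the letters GGGCGG of a GC box when read on the other strand, and runs of at least 8 T. Motifs were searched on both strands.
TCONS_00010520: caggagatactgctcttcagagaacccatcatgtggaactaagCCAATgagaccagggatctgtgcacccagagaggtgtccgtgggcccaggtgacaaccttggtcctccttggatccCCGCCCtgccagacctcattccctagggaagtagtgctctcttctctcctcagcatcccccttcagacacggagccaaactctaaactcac
TCONS_00038102: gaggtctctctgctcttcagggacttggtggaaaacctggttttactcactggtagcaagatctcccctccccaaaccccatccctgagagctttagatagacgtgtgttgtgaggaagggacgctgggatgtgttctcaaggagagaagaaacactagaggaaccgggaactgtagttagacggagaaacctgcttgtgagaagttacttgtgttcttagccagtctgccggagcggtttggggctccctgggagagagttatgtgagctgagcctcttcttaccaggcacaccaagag
TCONS_00042761: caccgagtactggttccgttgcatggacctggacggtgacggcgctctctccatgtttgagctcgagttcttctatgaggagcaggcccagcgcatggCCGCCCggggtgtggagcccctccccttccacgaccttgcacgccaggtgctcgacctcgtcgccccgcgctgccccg
TCONS_00032290: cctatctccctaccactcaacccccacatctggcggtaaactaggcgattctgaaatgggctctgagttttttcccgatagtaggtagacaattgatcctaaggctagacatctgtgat
TCONS_00012671: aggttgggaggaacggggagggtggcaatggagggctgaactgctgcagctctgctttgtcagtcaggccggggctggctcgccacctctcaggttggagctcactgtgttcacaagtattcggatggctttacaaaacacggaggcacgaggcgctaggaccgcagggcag
TCONS_00040154: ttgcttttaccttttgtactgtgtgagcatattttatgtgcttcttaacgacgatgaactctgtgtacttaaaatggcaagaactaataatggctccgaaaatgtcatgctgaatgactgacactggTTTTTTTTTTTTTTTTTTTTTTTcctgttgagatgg

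Of the 10 stretches, each matched only the transcripts or promoter window of its own gene when searched against all GENCODE transcripts and RefSeq windows at 90% identity over 80% of its length. The same held at 95% over 80% and at 90% over 50%. Copies in the rest of the genome were not searched. The coding stretch of Ppp2r3d had 67.0% G and C and 17 CpG pairs in 176 bases. The stretch at Wdr17 had 33.7% G and C and a long run of T near its end. RefSeq promoter windows, 250 bases before to 50 after a start, touched 9 members. AATAAA, the common polyadenylation signal, was found on either strand in 4 of these 9 windows, those of Add3, Gm40161, Wdr17 and Olfr862, and in 19.6% of all 32851 windows. CCAAT was found in 3 of 9, against 37.4% of all windows, GGGCGG in 3 of 9 against 35.7%, a run of 8 A in 2 of 9 against 7.87%, and TATAAA in 1 of 9 against 13.6%. ATTAAA, TGACGTCA and CACACACA were in none of the 9 windows, against 13.9%, 1.79% and 4.09% of all windows. With 9 windows, these shares describe the windows and were not tested.

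Among the 909 short regions counted in both nuclei libraries, the 287 members made up 31.6%. Over all features counted in both nuclei libraries, 882 of 11694 had no whole-sperm count, which is 7.54%, and over annotated genes alone 584 of 10623, or 5.50%. The share fell with level for genes and rose and then fell for short regions. Levels here are TMM-normalised CPM, counts scaled to library size, averaged over the 2 nuclei libraries. Between 5 and 10 CPM, 129 of 224 short regions were at 0 in whole sperm (57.6%, exact Clopper-Pearson 95% interval 50.8 to 64.1%), against 140 of 1894 genes (7.39%, 6.25 to 8.66%). Between 20 and 40 CPM it was 20 of 205 regions (9.76%, 6.06 to 14.7%) against 12 of 1671 genes (0.718%, 0.372 to 1.25%). Above 40 CPM, 3 of 114 regions and 1 of 2297 genes were at 0. In the lowest class, up to 2.5 CPM, it was 6 of 26 regions (23.1%, 8.97 to 43.6%) and 242 of 1391 genes (17.4%, 15.4 to 19.5%). The regions at 0 are the members that the rule chose, so these shares are descriptions and were not tested. These intervals treat each region or gene as an independent draw, and they do not cover the spread between preparations, with 1 whole-sperm library. The regions come from the authors' list of assembled transcripts, whereas the genes are annotated ones.

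**Figure D1:**
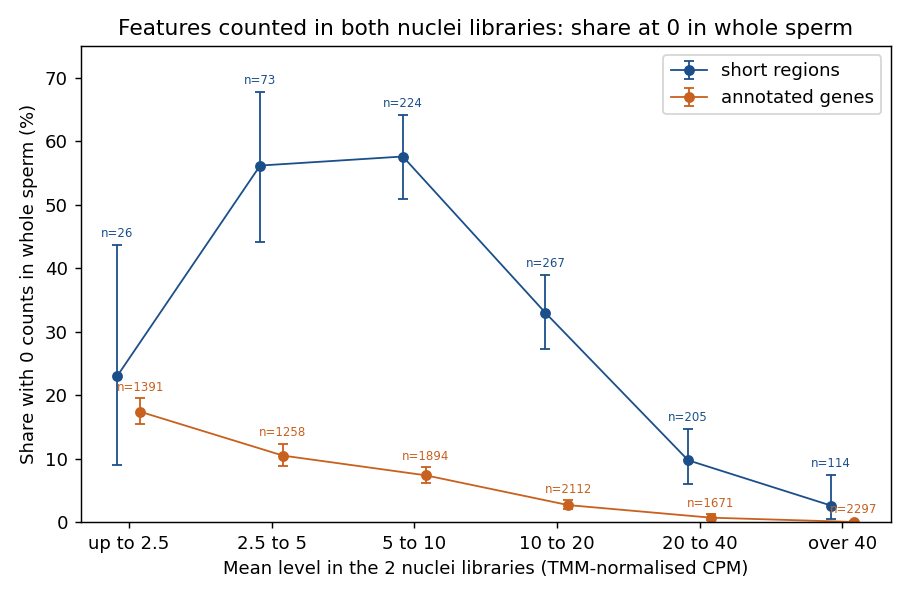
Share of features with 0 counts in whole sperm, in percent with exact 95% intervals, against the mean level in the 2 nuclei libraries in TMM-normalised CPM, for short regions (blue) and annotated genes (orange) counted in both nuclei libraries. Regions lay above genes in every class of level, at 23.1% against 17.4% up to 2.5 CPM and 57.6% against 7.39% between 5 and 10 CPM. The differences were not tested.

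Over the series, the feature totals of nuclei 1, nuclei 2 and whole sperm were 5487306, 6648848 and 8316345 counts, and 3 counts in whole sperm stand for 0.346 CPM, the level below which a feature at 0 cannot be placed. Short regions off the mitochondrial chromosome took 3.07%, 2.46% and 1.15% of those counts. The 10 spermatid and sperm markers (protamines, transition proteins and others) summed to 4820 and 4359 CPM in the nuclei libraries, above the 2506 CPM of whole sperm, with none at 0. The 12 epididymal and vas deferens epithelium markers summed to 2717 and 2739 CPM there, below the 17113 CPM of whole sperm, with 3, 3 and 2 genes at 0. Leukocyte markers ranged from 11.4 to 48.4 CPM in sum, smooth muscle and stroma markers from 80.7 to 138 CPM, and Sertoli and Leydig markers from 67.2 to 187 CPM, while erythrocyte markers had at most 4 counts. In nuclei 1, nuclei 2 and whole sperm, 4, 2 and 1 of 8 leukocyte genes and 2, 2 and 1 of 8 stroma genes were at 0. Of the 6 Sertoli and Leydig genes, 4 were at 0 in each library. That list includes Clu, which is also among the epididymal genes looked up below. The part of these other cells in the members' absence from whole sperm was not tested, and in bulk RNA fewer cells of a type and less RNA per cell cannot be told apart.

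The members were short and of modest level. Lengths ran from 266 to 714 bases with a median of 321, against 375.5 for the 622 short regions counted in every preparation. The longest member, TCONS_00024468, had 714 bases, and the shortest region beyond the 1000-base limit with the same count pattern had 1119. Counts had a median of 53 in nuclei 1 (range 1 to 332) and 30 in nuclei 2 (range 1 to 1122). At the lower edge of the rule, 8 members had a single read in nuclei 1 and 23 a single read in nuclei 2, but no member had fewer than 12 reads in the higher of its 2 nuclei libraries. Just outside it, 14 short regions counted in both nuclei libraries had 1 read in whole sperm and 5 had 2 reads. All members together held 18588 counts, or 0.339%, of nuclei 1 (exact 95% interval 0.334 to 0.344%) and 16187 counts, or 0.243%, of nuclei 2 (0.240 to 0.247%).

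The mean nuclei level of a member had a median of 8.36 CPM and ran from 1.22 to 84.2 CPM. Regions counted in every preparation had a median of 18.4 CPM. Set against the level of 3 whole-sperm counts, the mean nuclei level was at least 24.1-fold higher for the median member, at least 10-fold higher for 270 members and at least 100-fold higher for 4. These bounds rest on TMM scaling, on the floor of 1 whole-sperm library and on the mean of 2 nuclei libraries that often differed. Under spike-in scaling the median nuclei level was 6.00 CPM, below the 8.36 CPM of TMM, and the bounds were not computed under it. That scaling also makes the whole-sperm library size smaller, which raises the floor in CPM. The bounds would therefore be lower under it by more than the median level shows. With nuclei 1 alone the median bound was 29.2-fold and 239 members reached 10-fold, with nuclei 2 alone it was 13.0-fold and 166 members, and 121 members reached 10-fold in both libraries, a split added after the data were seen. In edgeR's quasi-likelihood test over all 16720 features that passed the filter, 286 members were tested and 3 passed an adjusted p of 0.05, all higher in nuclei, where 11 of all features tested, 0.0658%, were called higher. The 3 were TCONS_00019624, TCONS_00026513 and TCONS_00042396. DESeq2 gave an adjusted p to 76 members and called 32 higher in nuclei, where it called 163 of 8319 features higher in nuclei, 1.96%. Since the rule chose members on this contrast, nothing is read from either count.

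The 2 nuclei libraries differed widely over the members. On the log2 scale with 1 read added to each count, the median difference of nuclei 2 minus nuclei 1 was -1.46, with an SD of 2.96 and a range from -7.18 to 8.78. Over the 622 regions counted in every preparation the median was 0.06 with an SD of 2.22, and over all 11694 features counted in both nuclei libraries it was -0.03 with an SD of 2.07. Of the members, 203 were higher in nuclei 1 and 84 in nuclei 2. Only 65 members (22.6%) lay within 2-fold between the libraries, against 258 of 622 regions counted in every preparation (41.5%), while 110 members lay over 8-fold apart, 76 of them higher in nuclei 1. These values are descriptions: the rule used the nuclei counts, the regions counted in every preparation were higher in level, and regions of the same 2 libraries are not independent replicates. Members also had 0 whole-sperm counts and at least 12 reads in their higher nuclei library. A region listed because 1 nuclei library was high would differ between the libraries for that reason alone, and this part was not tested. At least 10 reads in both libraries were present in 177 members and at least 50 in 36, whereas 46 had 10 or more in one and at most 2 in the other.

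**Figure D2:**
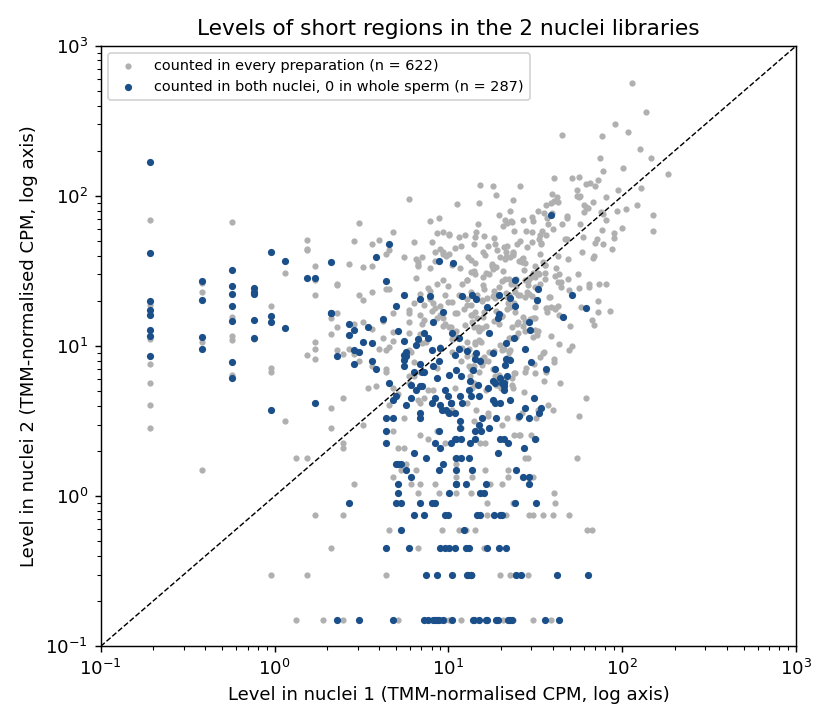
Level in nuclei 2 against level in nuclei 1, both in TMM-normalised CPM on log axes, for the 287 members (blue) and the 622 short regions counted in every preparation (grey); the dashed line marks equal levels. Members form an arm along each axis, where 1 library holds few reads, and 65 of them lie within 2-fold of the line.

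The 10 members of highest mean level show both kinds of pattern. TCONS_00026513, at chr3:24529000-24529325 in an intron of Naaladl2, a gene related to glutamate carboxypeptidases, had counts of 1, 1122 and 0 in nuclei 1, nuclei 2 and whole sperm. Its mean of 84.2 ± 119 CPM (SD, n = 2) was at least 243-fold above the whole-sperm floor, and rested on nuclei 2 alone. TCONS_00042396, at chr9:19884500-19885009 over exonic bases of Olfr862, an odorant receptor gene, had 205, 495 and 0 counts. Its level was 56.7 ± 24.8 CPM in nuclei (SD, n = 2), at least 164-fold above the floor, with both nuclei libraries high. The olfactory receptor gene itself, counted apart from the region, had 3, 0 and 0 counts.

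TCONS_00019624, on chromosome 18 outside any gene, had 326, 120 and 0 counts, and TCONS_00016209, at chr16:74720954-74721389 outside any gene, had 271, 146 and 0. Their means of 40.1 ± 31.3 and 36.8 ± 21.1 CPM (SD, n = 2) were higher in nuclei 1, with the other library also well above whole sperm. TCONS_00016284, at chr16:80485161-80485459, followed the same order with 238, 105 and 0 counts. TCONS_00024495, in an intron of the noncoding transcript Gm13986 at chr2:117912239-117912551, had 332 counts in nuclei 1 and 2 in nuclei 2, so that its 31.8 ± 44.6 CPM rested on nuclei 1. TCONS_00042431, 6.59 kb from the start of the noncoding gene Gm47778 at chr9:33603810-33604106, had 172 and 160 counts in nuclei and 28.4 ± 6.25 CPM. TCONS_00012940, at chr14:112531274-112531588, had 170 and 136 counts and 26.4 ± 8.52 CPM. TCONS_00010917, at chr13:33567049-33567475 within the long noncoding RNA Gm6093, had 126 and 183 counts and 25.7 ± 2.40 CPM. In these last 3 regions the nuclei libraries were close to each other, and every one of them had 0 counts in whole sperm. TCONS_00002301, at chr1:83130926-83131386, had 24 and 321 counts, and its 26.4 ± 30.8 CPM came mostly from nuclei 2.

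Of the 177 members with at least 10 reads in both nuclei libraries, the 5 with the most alike levels differed by at most 0.10 on the log2 scale. They were TCONS_00007576 at 11.5 and 11.4 CPM (60 and 76 counts), TCONS_00016272 at 7.06 and 6.75 CPM (37 and 45 counts) and TCONS_00032290 at 6.30 and 6.75 CPM (33 and 45 counts). The remaining pair were TCONS_00032075 at 4.96 and 4.65 CPM (26 and 31 counts) and TCONS_00002201 at 22.5 and 21.0 CPM (118 and 140 counts). Among these, TCONS_00032290 lay 0.266 kb from the start of Tmem270, counted from the middle of the region, and is one of the sequences printed above. None of the 5 overlapped an annotated gene.

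The 5 least alike of the 177 were TCONS_00007655, TCONS_00009089, TCONS_00029593, TCONS_00034356 and TCONS_00002301. TCONS_00007655 lay 0.667 kb from the start of Pdlim4, an actin-associated PDZ and LIM domain gene, and had 11 counts in nuclei 1 and 242 in nuclei 2, a log2 difference of 3.99. TCONS_00002301 differed in the same direction by 3.34. TCONS_00009089 with 129 and 10 counts, TCONS_00029593 with 165 and 16 and TCONS_00034356 with 142 and 14 were higher in nuclei 1, with log2 differences of -3.91, -3.64 and -3.60. The lower library of each still had 10 or more reads, where whole sperm had 0.

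**Figure D3:**
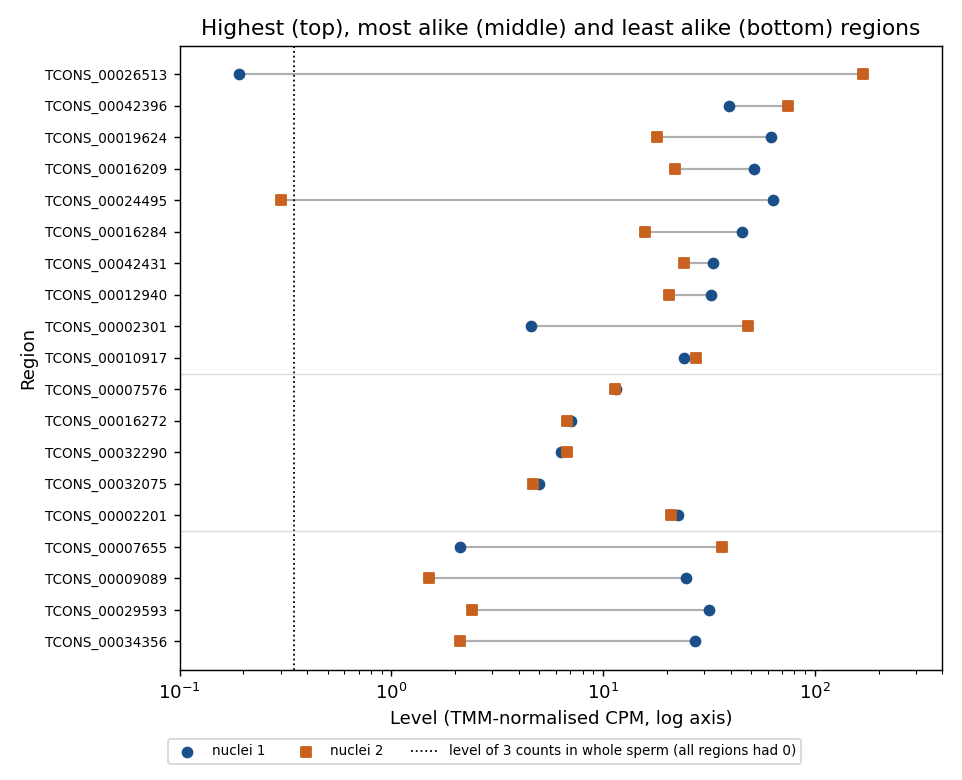
Level in nuclei 1 (circles) and nuclei 2 (squares), in TMM-normalised CPM on a log axis, for the 10 members of highest mean level, the 5 most alike and the 4 least alike not already shown; the grey line joins the libraries and the dotted line marks 3 counts in whole sperm, 0.346 CPM. TCONS_00026513 and TCONS_00024495 each have 1 library at or below the dotted line.

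Most members lay outside genes and far from protein-coding starts. Of the 287, 229 overlapped no gene of the annotation, and 58 did (20.2%, exact 95% interval 15.7 to 25.3%), against 254 of the 622 regions counted in every preparation (40.8%, 36.9 to 44.8%). Exons were touched by 9 members (3.14%, 1.44 to 5.87%), against 149 of those 622 (24.0%, 20.7 to 27.5%), and 49 members lay in introns only. Of gene types, 25 members overlapped a protein-coding gene, 24 a long intergenic noncoding RNA, 6 an antisense transcript and 4 a processed transcript. The nearest start of any gene was a median of 31.8 kb away, against 4.93 kb for regions counted in every preparation. The nearest start of a protein-coding gene was a median of 215 kb away (quartiles 46.8 and 531 kb), against 26.0 kb (2.57 and 91.0 kb) for regions counted in every preparation. No protein-coding start lay within 500 kb of 79 members (27.5%), against 18 of 622 (2.89%). A start of any gene lay within 1 kb of 17 members (5.92%), against 169 of 622 (27.2%).

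Regions counted in only 1 nuclei library had positions like the members'. The 877 counted in nuclei 1 only overlapped a gene in 15.1% and lay a median of 225 kb from a protein-coding start, and the 184 counted in nuclei 2 only gave 17.9% and 218 kb. Positions were also listed within classes of level, beside regions counted in every preparation. Below 5 CPM, 6 of 47 members overlapped a gene (12.8%) and their median distance was 208 kb. Regions counted in every preparation gave 22 of 52 (42.3%) and 36.1 kb there. Between 5 and 20 CPM, 44 of 217 members overlapped a gene (20.3%) and their median distance was 215 kb, against 108 of 274 (39.4%) and 21.7 kb. Above 20 CPM it was 8 of 23 members (34.8%) and 330.5 kb, against 124 of 296 (41.9%) and 28.9 kb. The shares overlapping a gene were closest in this last class, which held few members. Position was not used by the rule, but these shares are descriptions over regions of 1 genome and were not tested.

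**Figure D4:**
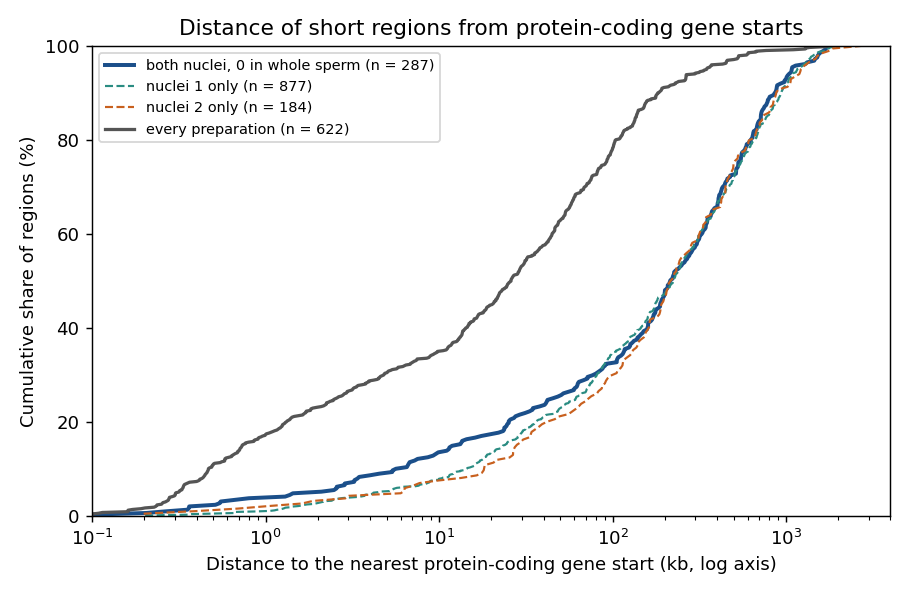
Cumulative share of short regions, in percent, against distance to the nearest protein-coding gene start in kb on a log axis, by the libraries in which a region was counted. The curves of members and of regions in 1 nuclei library run together, with medians of 215, 225 and 218 kb, to the right of regions counted in every preparation at 26.0 kb.

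No member lay nearer than 13.8 kb to another, and 10 members had another within 100 kb. Another region of the list, of any count pattern, lay within 10 kb of 21 members (7.32%), against 317 of 622 regions counted in every preparation (51.0%). Regions counted in 1 nuclei library gave lower shares, 24 of 877 for nuclei 1 only (2.74%, exact 95% interval 1.76 to 4.04%) and 9 of 184 for nuclei 2 only (4.89%, 2.26 to 9.08%), where the interval of the members was 4.59 to 11.0%. The nearest such neighbour was itself counted in every preparation for 15 of the 21. TCONS_00042761, in coding sequence of Ppp2r3d, had 60, 64 and 0 counts, and TCONS_00042762, 138 bases away, had 24, 27 and 3. TCONS_00040209 had 67, 62 and 0 counts and its neighbour TCONS_00040208, 369 bases away, 72, 107 and 67. TCONS_00034617 had 152, 96 and 0 counts and TCONS_00034618, 488 bases away, 141, 463 and 23. In each of these pairs the neighbour had reads in whole sperm and the member had none, which the rule required. The 3 reads of TCONS_00042762 are no more than the floor of 3 counts, so that pair cannot be told apart in whole sperm. The last 2 pairs were picked after their values were seen.

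By chromosome, 28 members lay on chromosome 3 (9.76% of members, where all short regions had 6.51% there), 27 on chromosome 4 (9.41%, 6.10%) and 26 on chromosome 16 (9.06%, 5.31%). The X chromosome held 4 members (1.39%, 2.68%) and the Y chromosome none. TCONS_00044465 had 46 and 53 counts in nuclei, TCONS_00044350 had 53 and 43, TCONS_00044428 had 61 and 21 and TCONS_00044416 had 50 and 3. TCONS_00044350, at chrX:53228089-53228375, lay in an intron of Plac1, a gene of the placenta, which had 0, 1 and 0 counts of its own.

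An exon of a protein-coding gene was touched by 5 members. Beside the olfactory receptor region these were TCONS_00038102 at chr7:82174184-82174584 (190, 47 and 0 counts), whose bases over Gm45089 are printed above and which also touched Sh3gl3, an endophilin gene. TCONS_00042761 was at chr9:124442008-124442295 (60, 64 and 0 counts). TCONS_00010520 was at chr13:59746493-59746934 (94, 29 and 0 counts), 0.0385 kb from the start of 1700014D04Rik. TCONS_00023742 was at chr2:155517136-155517733 (14, 6 and 0 counts), on an exon of Ggt7, a gene of the gamma-glutamyltransferase family. The gene 1700014D04Rik was not in the count tables. Of the other genes, 3 had whole-sperm reads of their own: Sh3gl3 had 28, 229 and 310 counts, Ppp2r3d 0, 25 and 47, and Ggt7 173, 583 and 77. Nuclei 1 was thus the highest library for the region at Sh3gl3 and the lowest for the gene.

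In all, members overlapped 24 protein-coding genes, of which 19 were in the count tables. Of these 19, 12 had counts in whole sperm, 4 had none in any library and 3 had counts in nuclei only. Sorbs3, which codes for the adaptor vinexin, had 887, 1665 and 833 counts, while TCONS_00012671 inside it had 11, 110 and 0. Wdr17, a WD repeat gene, had 43, 85 and 2 counts, and TCONS_00040154 had 27, 7 and 0. TCONS_00040097, with 63, 143 and 0 counts, lay in Lrp2bp, which had 44, 161 and 0, and in Ankrd37, which had 229, 613 and 86. Lrp2bp and the region were therefore both at 0 in whole sperm and higher in nuclei 2. Sorbs3, Wdr17, Lrp2bp and Ankrd37 were picked after their values were seen. Reads of a region, its host gene and an antisense partner cannot be separated without strand.

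The 5 longest members were TCONS_00024468, TCONS_00026820, TCONS_00023742, TCONS_00042751 and TCONS_00009243. TCONS_00024468, within the noncoding transcript A530058N18Rik and 9.24 kb from the start of the cardiac actin gene Actc1, had 25 and 22 counts in nuclei. TCONS_00026820, 622 bases long and 8.61 kb from the start of S100a10, an annexin partner, had 173 and 24. TCONS_00042751, 572 bases long and 2.09 kb from the start of Abhd5, a lipase coactivator, had 153 and 8. TCONS_00009243, 571 bases long in the long noncoding RNA Gm47020, had 5 and 284. Long members were therefore found with either library higher, and TCONS_00024468 had its libraries close to each other.

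Genes of 4 classes were looked up among overlapped genes and among nearest starts within 10 kb. No member met a gene of the haploid germ cell, epididymal or multicopy sex-chromosome lists, and neither did any region counted in 1 nuclei library, while at most 2 of 622 regions counted in every preparation met 1 of these lists (0.322%). Chemosensory receptor genes and pseudogenes, which code for or derive from odour and pheromone receptors, were the nearest start for 8 members (2.79%), against 13 of 877 regions counted in nuclei 1 only (1.48%), 1 of 184 in nuclei 2 only (0.543%) and 1 of 622 in every preparation (0.161%). The genes were Olfr248, Olfr383-ps1, Olfr1075-ps1, Olfr375-ps1, Olfr38, Vmn1r73, Olfr833-ps1 and Olfr862, and 3 members lay within their gene, those of Olfr38, Vmn1r73 and Olfr862 (1.05%). Overlap with such a gene was found in 9 of 877 regions counted in nuclei 1 only (1.03%), in 1 of 184 in nuclei 2 only and in none of 622 in every preparation. The region in Olfr38, TCONS_00034441, had 94 and 60 counts in nuclei, while Olfr38 itself had none in any library. The region in Vmn1r73, TCONS_00037837, had 26 and 123, and Vmn1r73 had none. TCONS_00007715, 1.04 kb from the start of Olfr383-ps1, had 4 and 162 counts, and TCONS_00002648, 3.46 kb from that of Olfr248, had 73 and 1. The higher library was nuclei 1 in some of these regions and nuclei 2 in others, and all but the region at Olfr862 were picked after their values were seen. Chemosensory receptor genes lie in large families of similar sequence, so their counts are uncertain.

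The authors' RPKM table, which scales reads by region length and library size, listed 283 members at 0 in whole sperm and 4 above 0. Despite their whole-sperm count of 0, 2 members were well above 0 there. TCONS_00023742 had RPKM of 27.5, 99.8 and 47.35 in nuclei 1, nuclei 2 and whole sperm, and TCONS_00010520 had 19.5, 9.11 and 21.1. Both share bases with another region of the list, TCONS_00023743 and TCONS_00010519, and both touch an exon of a gene, and the part of that overlap in the RPKM was not tested. RPKM per count was corrected for length and divided by the median of members with at least 20 counts in the same library. It was 19.5 in nuclei 1 and 163 in nuclei 2 for TCONS_00023742, which itself had fewer counts. For TCONS_00010520 it was 1.52 and 2.27. TCONS_00020936 and TCONS_00044428 had whole-sperm RPKM of 0.0789 and 0.0828, near 0 beside 8.02 and 14.3 in nuclei 1; TCONS_00020936 is named for this value alone. For members with at least 20 counts, RPKM per count lay within 0.5 to 1.5 of the median in 236 of 237 in nuclei 1 and in 173 of 175 in nuclei 2. Median RPKM over the members was 9.42 in nuclei 1 and 4.95 in nuclei 2.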

How the data were processed

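RNA from 2 sperm nuclei preparations and 1 whole-sperm preparation was sequenced in 2 runs each, which the 3 deposited count tables were taken to combine. The authors deposited whole-number counts per gene or region, RPKM, and an adjusted whole-sperm column, handled as a score, which was 0 for every member. Per the submitters' processing notes, the tools on build mm10 included TopHat2 2.0.12 and Cufflinks 2.1.1, and also HTSeq, DESeq2, bedtools, SAMtools 0.1.19 and CASAVA 1.8.2. What each did, and whether counting used strand, is not given in the sources used here. Region positions come from the authors' deposited list, which has no strand.

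The whole-sperm table also held 34.4% of reads outside features and 1.97% ambiguous reads, which were left out together with spike-ins. Levels are TMM-normalised CPM from edgeR 4.0.16 (R 4.3.3), given for 25610 rows. Their library sizes and TMM factors were taken from the 16720 features that passed filterByExpr. The edgeR quasi-likelihood test (filterByExpr, Benjamini-Hochberg adjustment, threshold 0.05) had 1 residual degree of freedom and takes the spread of the single whole-sperm library to equal that of nuclei; p-values may measure only technical spread. Alternatives used DESeq2 1.42.0, limma 3.58.1 on log2(RPKM + 0.1) and log2(RPKM + 1), other scalings and other limits of the rule. Folds against 0 use a floor of 3 counts per library. Floors, and the 95% intervals of shares of library counts, hold for counting error alone, as PCR duplicates were not marked. The 95% intervals of shares of regions or genes treat each one as an independent draw. Positions were compared with GENCODE vM21, with distances to starts taken from a region's middle, and stretches were searched with BLAST 2.17.0.

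Named were the 10 members of highest mean level, the 5 most and 5 least alike between nuclei libraries among those with at least 10 counts in each, the 5 longest, those on a protein-coding exon and those on X or Y, with genes they overlap or whose start is nearest within 10 kb; any other is said to be picked later. The members and lists were chosen with earlier results of these data known.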

Additional observations from a re-analysis of the deposited data

Results flagged for a closer look

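The RPKM table, which the choice of members did not use, gave a whole-sperm value above 0 for 4 members whose whole-sperm count was 0. TCONS_00023742 was listed at 47.35 and TCONS_00010520 at 21.1, while TCONS_00020936 was listed at 0.0789 and TCONS_00044428 at 0.0828. No group had the 4 samples that a check for a single outlying sample needs.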

How the results depend on the processing

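The number of members, 287, was 177 with at least 10 counts in each nuclei library. With nuclei 1 or nuclei 2 left out of the rule in turn it was 471 and 1164. It lay between 216 and 306 with at least 2 or 5 counts, at most 1 or 2 counts in whole sperm, and other length limits, and it was 283 when the whole-sperm RPKM also had to be 0, an alternative chosen after seeing the data. The median nuclei level, 8.36 CPM, was 6.00 CPM with spike-in scaling and 16.5 CPM without the 10 most abundant features, whose removal shrinks the library totals. It was 4.50 and 10.1 CPM with nuclei 2 or nuclei 1 alone. The median log2 difference between nuclei libraries stayed between -1.49 and -1.39 under the 4 scalings and 2 prior counts tried. Gene overlap was 19.9% and exon overlap 2.09% at the strictest overlap tried for each. The 3 members called by edgeR were 32 of 76 by DESeq2, beside 163 of 8319 features. With spike-in scaling edgeR called 2 of 286, beside 4 of 16720. The count was 0 of 50 at a mean of at least 10 CPM, and 0 of 287 by limma on log2(RPKM + 0.1) and on log2(RPKM + 1). At an unadjusted p under 0.05, 39 of those 50 members were higher in nuclei, beside 404 of all 7448 features. By limma it was 100 and 65 of 287 members, beside 424 and 423 of all 19811 features. With spike-in scaling it was 10 of 286 members and 52 of 16720 features, against 53 and 631 in the main fit. The rule chose members on this contrast, so nothing is read from these counts, and the cause was not tested. Leaving out a nuclei library left no residual degrees of freedom for the test. Motif shares over all members, copies in the genome and overlap on the same strand were not run. No paired analysis was possible because whole sperm had 1 preparation.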

Other observations

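Beyond the length limit, 11 regions of 1119 to 46888 bases had the same count pattern, with reads in both nuclei libraries and 0 in whole sperm. The RPKM table listed 9 of these 11 above 0 in whole sperm, against 4 of the 287 members. The difference was not tested.

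Short regions counted in a single nuclei library numbered 877 in nuclei 1 and 184 in nuclei 2, although nuclei 2 had more counts in all. Their median count was 63 in nuclei 1 and 89 in nuclei 2, and the lowest were 6 and 15.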
